A study of Mus musculus with 2 samples.

Results

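R-loop peaks were examined at 9 mouse genes whose human counterparts cause inherited neurological or neuromuscular disease when a tandem repeat in them expands. The genes were Htt, Atxn1, Atxn2, Atxn3, Atxn7, Cacna1a, Tbp, Atn1 and Dmpk, chosen by symbol from the GENCODE M1 annotation of NCBI37/mm9, which holds 37273 genes, 22367 of them protein-coding. A peak was counted for a gene when it overlapped the gene or lay within 2 kb of it. The peaks came from DRIP-seq, which sequences the fragments of digested genomic DNA that the hybrid-binding antibody S9.6 brings down. Primary neural stem/progenitor cells (NSPCs) were cultured from frontal brains of C57BL/6 mice at postnatal day 7. Per the paper the cells received aphidicolin, which inhibits DNA polymerases and causes mild replication stress, at 0.5 μM over 48 h, whereas the labels name no treatment. The study lists 1 DRIP sample and 1 input sample of the same cells. Per the paper they stand for several biological replicates, whose repeat DRIP reactions were pooled before sequencing. No untreated group was compared here, and no expanded allele is named for these mice. The deposited list of 22132 peaks gives positions alone, with no signal, count or score, so the depth is unknown and no replicate error or test can be given. All comparisons below are therefore descriptions of this 1 list.

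R-loops are three-stranded structures in which RNA pairs with the DNA template and displaces the other strand, and they form in transcribed DNA. Most of the 9 genes belong to the polyglutamine disease group, in which a run of CAG codons in the coding sequence lengthens and the protein gains a long glutamine tract. Dmpk differs, since the human repeat is a CTG run in the 3′ untranslated region (UTR) that acts through the RNA. Transcription through such runs, and R-loops formed there, have been studied for their part in repeat instability. Mouse alleles are short, so any peaks at or near these genes were mapped without a disease-length repeat.

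Of the 9 genes, 8 had at least 1 peak, and Atxn3 was the exception. By the same rule 43.1% of protein-coding genes had a peak. The peaks numbered 39 and their distribution was uneven, with 14 at Cacna1a, 9 at Atxn1, 5 at Htt, 3 each at Atxn2 and Tbp, 2 each at Atn1 and Dmpk, and 1 at Atxn7. Long genes more often have a peak, so each gene was set beside protein-coding genes of its own length class. No comparison with other genes made here is matched for transcription. Per the paper, nearly all genes with a peak were transcribed or of ambiguous activity, whereas the classes also hold silent genes. A peak was present in 26.4% of genes under 10 kb, the class of Dmpk, in 48% of genes of 10 to 30 kb, the class of Tbp and Atn1, and in 56.3% of genes of 30 to 100 kb, the class of Atxn3 and Atxn7. The share was 64.1% for genes of 100 to 300 kb, which include Htt, Atxn2 and Cacna1a, and 68.2% for genes of 300 kb or more, which include Atxn1. In its class, Cacna1a had more peaks than 98.8% of 1873 genes, Htt more than 84.8% and Atxn2 more than 70.3%. Dmpk had more peaks than 93.1% of its class, Atxn1 more than 92.8%, Tbp more than 91.2% and Atn1 more than 76.8%. At 9.97 kb, Dmpk lies at the upper limit of its class, and Atn1 in the next class had the same number of peaks. The 2 peaks of Dmpk became 1 when peaks closer than 1 kb were merged. Atxn7 had more peaks than 43.7% of its class and fewer than 32.8%. Peaks covered a median of 5.86% of the length of the 9 genes, from 0 for Atxn3 and Atxn7 to 83.4% for Dmpk. The median over all protein-coding genes was 0, since most had no peak. By length class the median coverage was 0.735% for genes of 30 to 100 kb, 0.459% for 100 to 300 kb and 0.142% for 300 kb or more. It was 0 in the shorter classes.

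**Figure D1:**
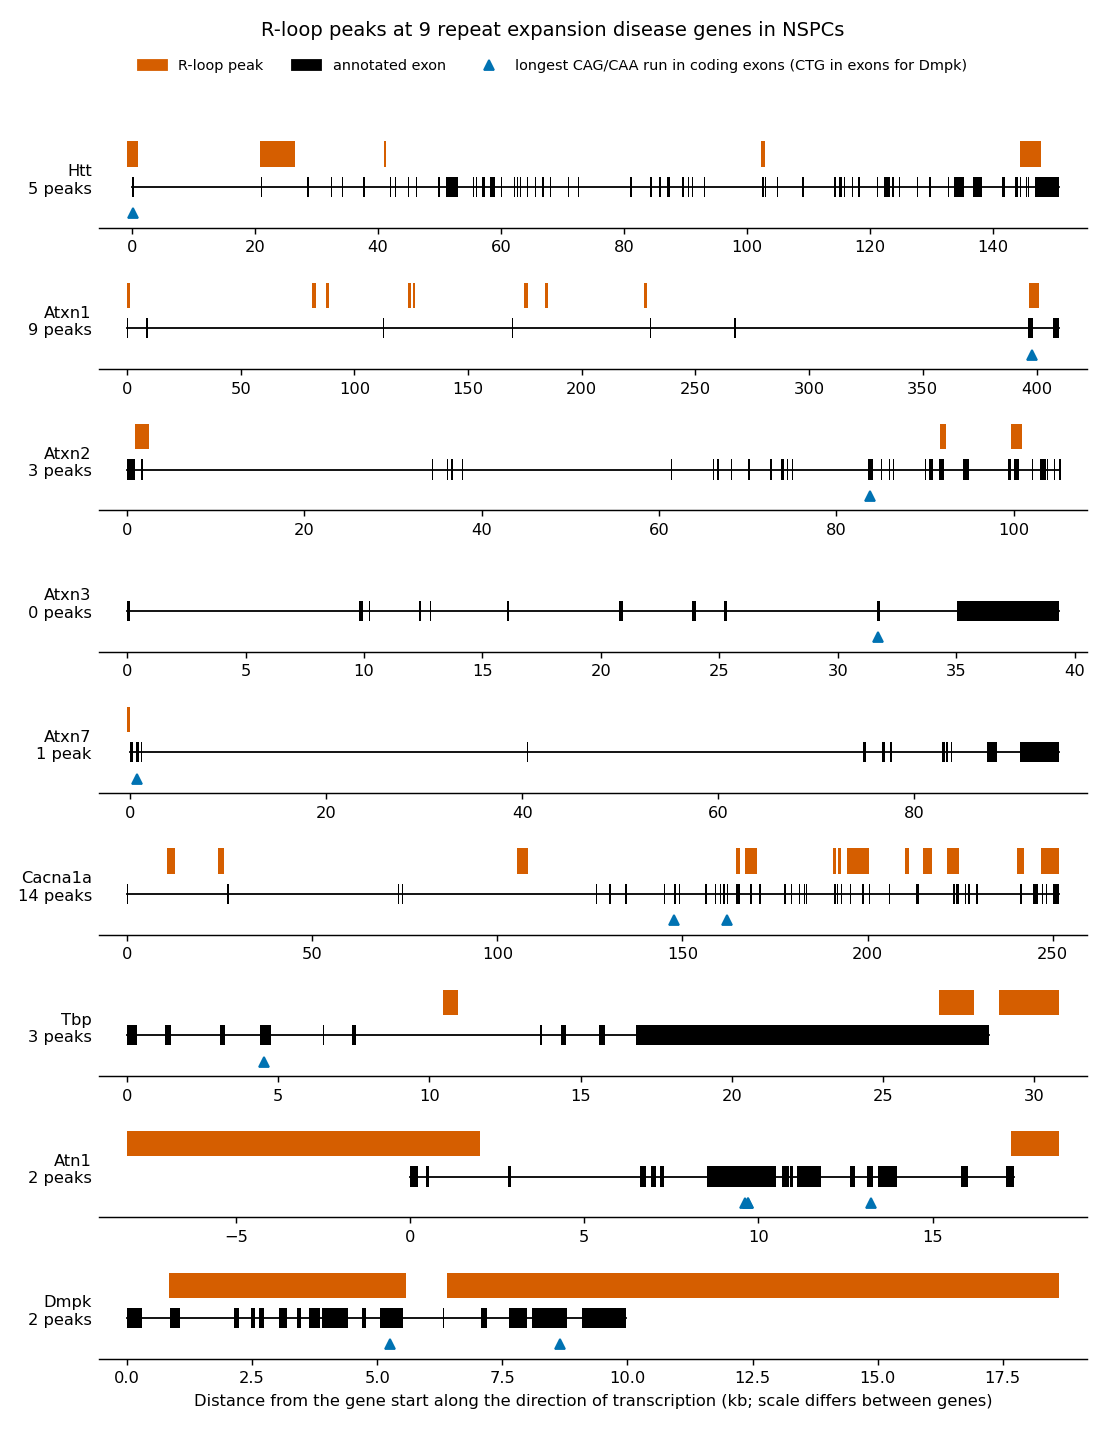
Maps of the 9 genes with distance from the gene start in kb on the x axis (each gene has its own scale), R-loop peaks in orange (drawn at no less than 0.3% of the gene's length), annotated exons in black and the longest CAG or CAA runs of the coding exons (CTG runs of the exons for Dmpk) as blue triangles, with equally long runs all marked. Atxn3 has no peak, 11 of the 14 peaks of Cacna1a lie in the 3′ 50% of the gene, and the Htt and Dmpk runs lie under peaks.

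Because the disease repeats are CAG runs, the longest uninterrupted run of CAG or CAA, both of which encode glutamine, was located on the coding strand of each gene's annotated coding exons. For the 6 genes in which this run stood at 1 place, it is printed below in capitals, with the whole coding part of exon 1 for Htt and up to 36 coding bases on each side for the others. The sequences are those of the NCBI37/mm9 reference, 5′ to 3′ on the coding strand.
Htt, chr5:35104556-35104758, plus strand: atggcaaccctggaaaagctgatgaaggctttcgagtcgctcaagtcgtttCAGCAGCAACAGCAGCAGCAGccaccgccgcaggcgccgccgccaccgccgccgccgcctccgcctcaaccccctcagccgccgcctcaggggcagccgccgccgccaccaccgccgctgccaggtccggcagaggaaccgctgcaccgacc
Atxn1, chr13:45662413-45662493, minus strand: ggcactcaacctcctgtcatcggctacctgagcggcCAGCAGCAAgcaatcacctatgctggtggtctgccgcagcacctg
Atxn2, chr5:122245033-122245125, plus strand: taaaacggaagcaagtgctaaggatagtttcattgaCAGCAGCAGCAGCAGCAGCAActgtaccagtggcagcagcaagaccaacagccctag
Atxn3, chr12:103164737-103164791, minus strand: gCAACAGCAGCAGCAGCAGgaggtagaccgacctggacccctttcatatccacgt
Atxn7, chr14:14845634-14845720, plus strand: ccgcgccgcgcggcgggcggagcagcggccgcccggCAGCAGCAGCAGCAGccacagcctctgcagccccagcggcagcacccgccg
Tbp, chr17:15641319-15641429, plus strand: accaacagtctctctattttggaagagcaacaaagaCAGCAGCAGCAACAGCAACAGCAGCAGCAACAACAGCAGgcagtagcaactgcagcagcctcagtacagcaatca

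The longest CAG run itself, without CAA, was short in every gene. It had 6 repeats in Atxn2, 5 in Atxn3 and in Atxn7, 4 in Htt, 3 in Tbp and Atn1, and 2 in Atxn1 and Cacna1a. Of all protein-coding genes, 1.12% had a coding run of at least 5 CAG and 2.20% one of at least 4, while runs of at least 3 were found in 9.35% and of at least 2 in 60.9%, so the shortest runs mark no particular place. The Atxn2 run lies in exon 15 of the main transcript in another reading frame, where it does not encode glutamine. The data do not establish that each mouse run is the counterpart of the human disease repeat.

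Htt encodes huntingtin, a large scaffold protein whose expanded exon 1 causes Huntington disease. The gene is 151 kb long and is transcribed from the plus strand (chr5:35104389-35255183). Its first peak (chr5:35103601-35105364, 1.76 kb) reached from -788 to 975 bp relative to the gene start, covering all of exon 1. The CAG and CAA run of 7 codons printed above therefore lay inside a peak, 218 bp from the gene start. It stands on a restriction fragment of 2.12 kb. The DNA was sonicated only after precipitation, so a hybrid anywhere on a fragment can bring down all of it.

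The widest Htt peak (chr5:35125193-35130841, 5.65 kb) began 20.8 kb into the gene and overlapped exon 2, and 92.4% of all peaks were narrower. A peak of 0.424 kb lay in an intron 40.9 kb from the start, and another of 0.644 kb at 102 kb overlapped exon 38. The last Htt peak (chr5:35248831-35252169, 3.34 kb) overlapped exons 64 to 67 and ended inside the last of them, 3014 bp before the gene end. The 5 peaks covered 7.32% of the gene and 10.3% of its 9360 coding bases, beside 10.8% of the coding bases of all protein-coding genes.

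Atxn1 encodes ataxin-1, a nuclear protein that binds transcriptional repressors, and its expansion causes spinocerebellar ataxia type 1. The gene is the longest of the 9, with 410 kb on the minus strand of chromosome 13 (chr13:45650262-46060345). Its first peak (chr13:46058843-46060300) began only 45 bp inside the gene, and with 69.8% GC it was the most GC-rich of the 39. Of the other peaks, 7 lay in introns between 81.5 and 228 kb from the start and measured 0.217 to 1.54 kb. The ninth (chr13:45659427-45663581, 4.16 kb) lay 397 kb from the start and held 1640 bases of exon 7, the large coding exon. These bases made up 69.1% of the coding sequence, although peaks covered 2.62% of the gene. The glutamine run printed above lies in this peak. The 2-repeat CAG runs of Atxn1 stand at 11 places, of which 9 were in the same peak.

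Atxn2 encodes ataxin-2, an RNA-binding protein that regulates translation. On the plus strand of chromosome 5 (chr5:122161346-122266502, 105 kb) it had a peak of 1.54 kb that began 886 bp inside the gene, or 614 bp from the start of its main coding transcript. The other peaks lay at the 3′ part of the gene, with 0.652 kb at exon 20 and 1.19 kb at exon 23, 91.7 and 99.7 kb from the start. The CAG run in exon 15 was 7926 bp from the nearest peak. Coverage was 3.22% of the gene and 9.42% of its coding bases.

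Atxn3 encodes ataxin-3, a deubiquitinating enzyme mutated in Machado-Joseph disease. No peak lay within 2 kb of the gene, which is 39.3 kb long and on the minus strand (chr12:103157111-103196456). The nearest peak was 16897 bp from its start. Its run of 5 CAG in exon 10, 31.7 kb from the start, was 42221 bp from a peak. Of the 4953 genes of 30 to 100 kb, 56.3% had more peaks than Atxn3.

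Atxn7 encodes ataxin-7, a subunit of the SAGA histone acetyltransferase complex, and its expansion causes ataxia with retinal degeneration. Its only peak was small and lay outside the gene, ending 52 bp upstream of the gene start on the plus strand of chromosome 14 (chr14:14845005-14939810, 94.8 kb). The whole peak is printed here because it is the only one at this gene, with capitals for the 60 bases in which G exceeds C most on the coding strand.
Atxn7 peak, chr14:14844669-14844953, plus strand, 285 bp: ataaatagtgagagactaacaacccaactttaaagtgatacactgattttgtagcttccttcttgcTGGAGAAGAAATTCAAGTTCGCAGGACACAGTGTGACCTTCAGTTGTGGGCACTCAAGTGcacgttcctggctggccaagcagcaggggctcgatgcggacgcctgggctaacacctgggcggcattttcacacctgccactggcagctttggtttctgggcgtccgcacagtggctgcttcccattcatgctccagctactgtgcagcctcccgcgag
Over the whole peak G and C were nearly equal, at 75 and 78 bases. The run of 5 CAG in exon 2 was 717 bp from this peak and 665 bp from the gene start. It stands on a restriction fragment of 1.51 kb that also holds the whole peak.

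Cacna1a encodes the pore-forming subunit of P/Q-type voltage-gated calcium channels, which open at presynaptic terminals. It is annotated over 252 kb on the plus strand of chromosome 8 (chr8:86912339-87164145), and its 14 peaks added up to 30.9 kb or 12.3% of the gene. Of these, 11 had their midpoint in the 3′ 50% of the gene and 3 in the 5′ 50%, and the annotated exons are denser in the 3′ part as well. The widest (chr8:87106786-87112794, 6.01 kb) overlapped exons 28 to 30. Another of 4.93 kb (chr8:87159026-87163953) overlapped exons 44 to 47 and ended inside the last of them, 192 bp before the gene end. Peaks covered 33.0% of the 7104 coding bases. The annotated gene start belongs to a noncoding transcript and was 10711 bp from a peak, whereas the main coding transcript starts 26924 bp further in, 743 bp from a peak. One peak of 3.20 kb also overlapped Gm16183, a noncoding gene on the opposite strand. The longest CAG runs had only 2 repeats, at 8 places, and of these 1, in exon 39, was in a peak.

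Tbp encodes the TATA-binding protein, which nucleates transcription by all nuclear RNA polymerases. Its CAG and CAA run of 13 codons in exon 3 was the longest of the 9 genes and lay 5912 bp from the nearest peak. On the plus strand of chromosome 17 (chr17:15636852-15665343, 28.5 kb) the gene start was 2490 bp from a peak. A peak of 0.502 kb lay in an intron 10453 bp from the start. The other peaks stood at the 3′ end, with 1.17 kb inside the last exon and 2.00 kb beginning 349 bp beyond the gene end. The 1.17 kb peak (chr17:15663703-15664869) also held the start of Pdcd2, a gene on the opposite strand that overlaps the 3′ part of Tbp, so at a position in both genes the list does not tell which transcript formed the hybrid. No coding base of Tbp was in a peak.

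Atn1 encodes atrophin-1, a transcriptional corepressor mutated in dentatorubral-pallidoluysian atrophy. It lies on the minus strand of chromosome 6 (chr6:124689207-124706542, 17.3 kb) and had a peak at each end and none over its coding sequence. The 5′ peak (chr6:124704538-124714669, 10.1 kb) was wider than 98.1% of all peaks. It extended from -8.13 to 2.00 kb relative to the Atn1 start, and upstream it covered 47.8% of Eno2, the gene of the neuronal glycolytic enzyme enolase 2, including its 3′ end. The 3′ peak of 1.40 kb held the gene end of Atn1, that of Grcc10 and the start of Ptpn6, which encodes a tyrosine phosphatase. It also overlapped RP24-297C1.11, a noncoding gene on the opposite strand. The main coding transcript of Atn1 ends 3260 bp short of this peak. The CAG runs of 3 repeats, in exons 5 and 9, were 7536 and 4008 bp from a peak.

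Dmpk encodes the myotonic dystrophy protein kinase, and it was the most covered of the 9 genes. The gene is short, with 9.97 kb on the plus strand of chromosome 7 (chr7:19669198-19679170), and its peaks covered 83.4% of it and 91.3% of its 2034 coding bases. The first peak (chr7:19670046-19674775, 4.73 kb) began 848 bp inside the gene and overlapped exons 2 to 9 and the annotated microRNA gene AC170864.1. The other (chr7:19675584-19687830, 12.2 kb) overlapped exons 10 to 15, ran past the gene end, covered all of Six5, a homeobox transcription factor gene located 723 bp downstream, and met the 3′ end of Gm4969. It was wider than 99.0% of all peaks, and 429 peaks in the list were 10 kb or more. The longest CTG run of the exons had 3 repeats at 2 places, both in peaks. Neither place lies whole within an exon of the main transcript. In the 3′ UTR of the main transcript, where the human repeat lies, the longest CTG run had 2 repeats and was in the 12.2 kb peak.

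**Figure D2:**
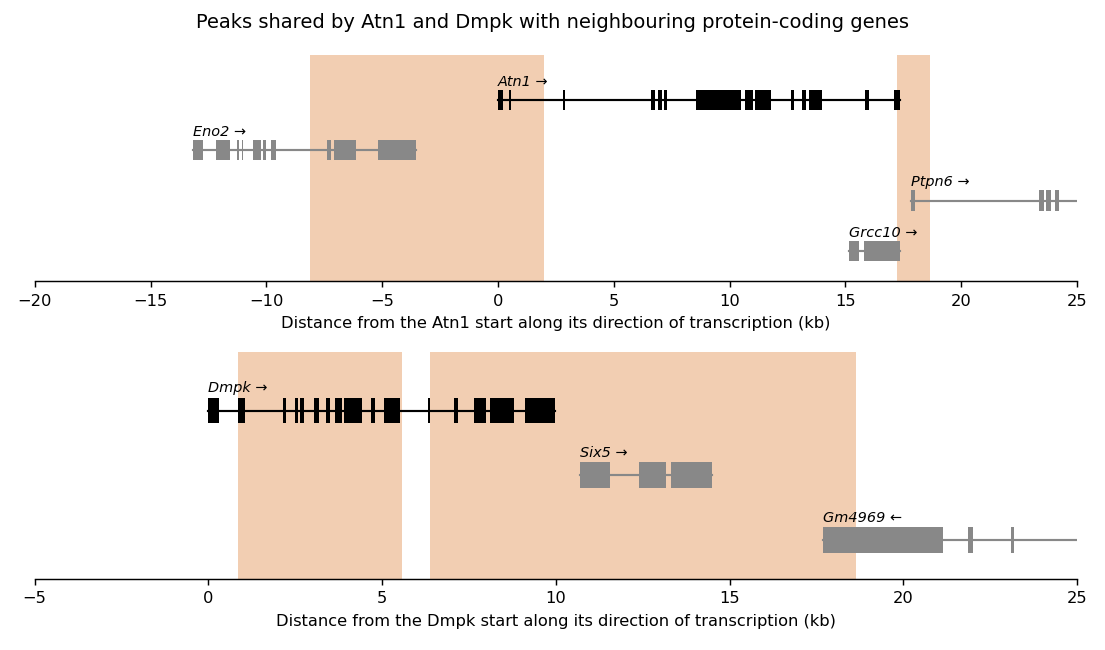
Peaks (orange bands) at Atn1 (top) and Dmpk (bottom) with the neighbouring protein-coding genes they meet, as distance from the member's start in kb; thick bars are annotated exons and arrows give the direction of transcription relative to Atn1 or Dmpk. The 10.1 kb peak spans the 5′ end of Atn1 and the 3′ end of Eno2, and the 12.2 kb peak runs from Dmpk over all of Six5.

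The gene start lay in a peak for Htt and Atn1, which is 2 of 9, beside 14.9% of all protein-coding genes. This share rises with GC content around the start, measured within 2 kb on each side. Among the genes with the highest GC content, when all were split into 5 equal groups, it was 30.3%, and this group holds Atn1 and also Atxn1, Atxn2 and Dmpk, whose starts were outside peaks. It was 23.7% in the next group, with Htt and Atxn7, and 13.7% in the middle group, with Atxn3 and Tbp. A peak lay at the start or within 1 kb of it for 6 of the 9 genes, beside 19.4% of all protein-coding genes, and the distances were 45 bp for Atxn1, 52 bp for Atxn7, 848 bp for Dmpk and 886 bp for Atxn2. The gene end lay in a peak for Atn1 and Dmpk, beside 10.9% of all protein-coding genes, and within 1 kb of one for Cacna1a and Tbp. With these, 4 of 9 genes had a peak at the end or within 1 kb of it, beside 17.4% of all protein-coding genes.

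**Figure D3:**
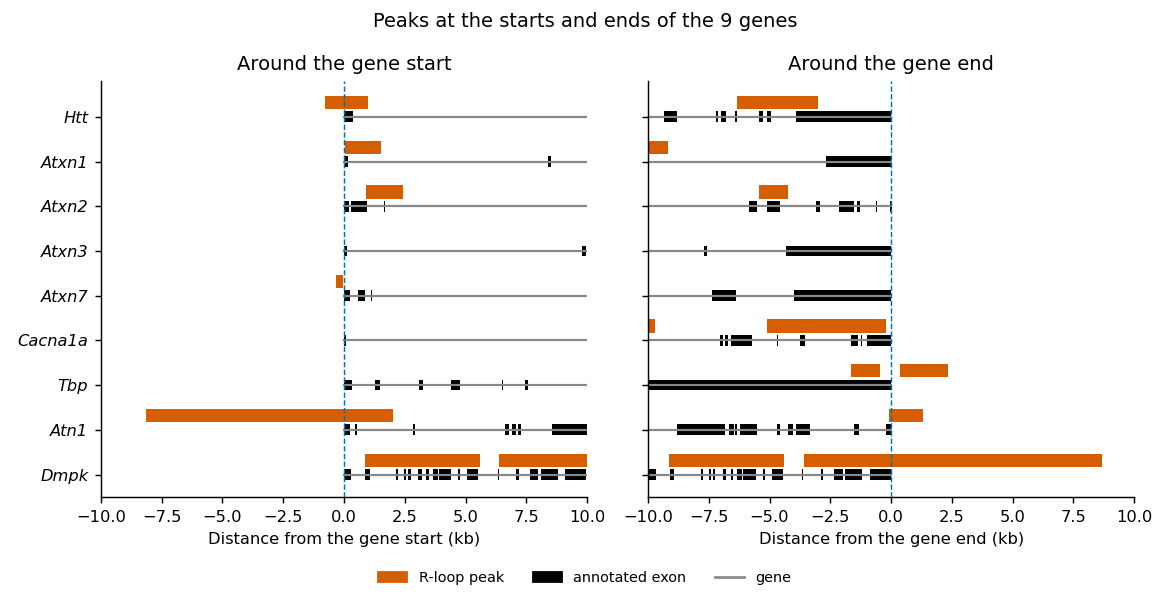
Peaks (orange) within 10 kb of the gene start (left) and the gene end (right) of the 9 genes, with exons in black and the gene as a grey line; negative distances in kb are upstream. The Htt and Atn1 starts and the Atn1 and Dmpk ends lie under a peak, and the first peaks of Atxn1 and Atxn7 come within 45 and 52 bp of the start.

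Htt, with its CAG run, and Dmpk, with its CTG run, held the longest run in a peak at every place it occurred. With CAA allowed in the run, Atxn1 did so too, which made 3 of 9 genes. The longest CTG run of Dmpk is not in the 3′ UTR of the main transcript, where the human repeat lies. Peaks covered 92.6% of the exon bases of Dmpk and 69.1% of the coding bases of Atxn1. Most places where a run could stand in these 2 genes were therefore in a peak. Over all protein-coding genes, 88 of 353 coding runs of at least 5 CAG overlapped a peak, or 24.9% (95% Wilson interval 20.7 to 29.7%, covering counting error only). The members with a run of that length were Atxn2, Atxn3 and Atxn7, and none of these runs was in a peak, although the Atxn7 run shares a restriction fragment with one. For runs of at least 4 CAG, which include that of Htt, the share over all protein-coding genes was 22.2%. The Dmpk and Atxn1 runs are shorter and have no such comparison here.

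**Figure D4:**
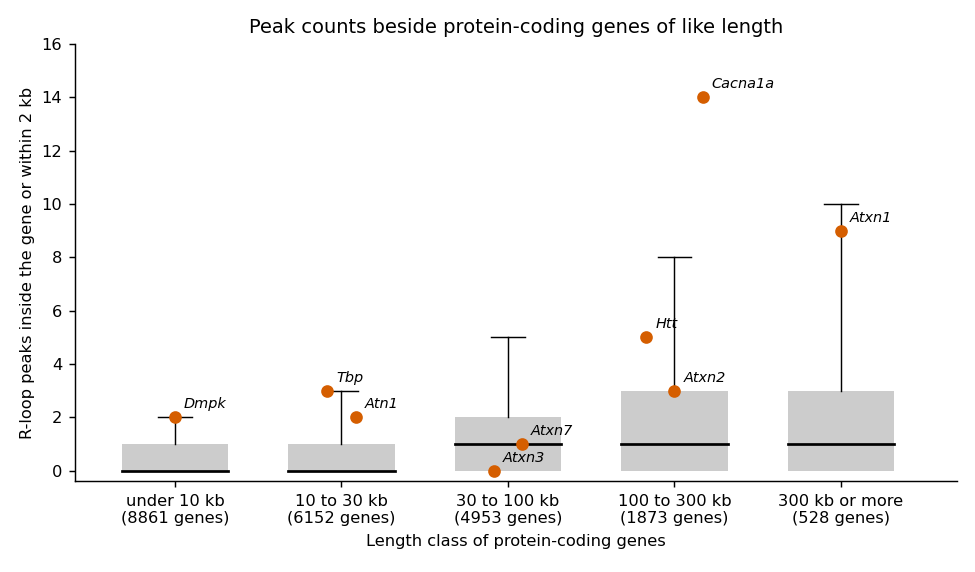
Number of R-loop peaks inside a gene or within 2 kb (y axis) by length class of protein-coding genes (x axis), with grey boxes for the middle 50% of genes, black lines for the median, whiskers to the 95th percentile and orange points for the 9 genes. Cacna1a, with 14 peaks, stands above the 95th percentile of 8 in its class, and Atxn3, with 0, lies at the bottom of the box.

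Most of the 39 peaks were intronic by their midpoint. Classes were read from any transcript of any annotated gene, with promoters taken first. An intron held 24 midpoints, a promoter 6, a termination site 3, an exon of a noncoding transcript 3, a coding exon 2 and intergenic DNA 1. A promoter or termination site here need not be the member's own. The Tbp peak classed as promoter held the start of Pdcd2, and the Atn1 peak classed as termination site held the end of Eno2. The 39 peaks included 21 that overlapped an exon and 17 that overlapped coding sequence. Neither the classes nor these overlaps were counted over all peaks of the list, so they describe only the 39 peaks. Their median width was 1.41 kb beside 1.32 kb for all peaks, and their median GC content 50.1% beside 48.7%. Within each of the 7 genes that a peak overlapped, the covered bases were more GC-rich than the rest of the gene. The difference was widest in Atxn2, with 57.3% in peaks and 43.9% outside, and in Tbp, with 53.4% and 40.8%. It was narrowest in Cacna1a, with 51.3% and 48.9%, and for Htt the values were 46.8% and 42.1%. This comparison was not made for other genes with a peak, so it is not read as particular to these 7.

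GC skew is the excess of G over C, (G - C)/(G + C), and a G-rich coding strand is known to favour R-loops. On the coding strand the median skew of the 39 peaks was -0.020, and 15 of them (38.5%) were above 0. Over the 11847 peaks that lay inside 1 protein-coding gene the median was 0.041, and 64.8% were above 0. The sets were not selected alike, because some of the 39 peaks lie outside the gene, run past its limits or overlap other genes. The highest skew among the members was 0.293, in the intronic Htt peak of 0.424 kb, followed by 0.230 in an Atxn1 and 0.220 in an Atxn2 peak. The Htt peak over exon 1 had a skew of -0.037. The lowest values were all at Atxn1, where 4 small intronic peaks had skews of -0.991, -0.686, -0.659 and -0.525.

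**Figure D5:**
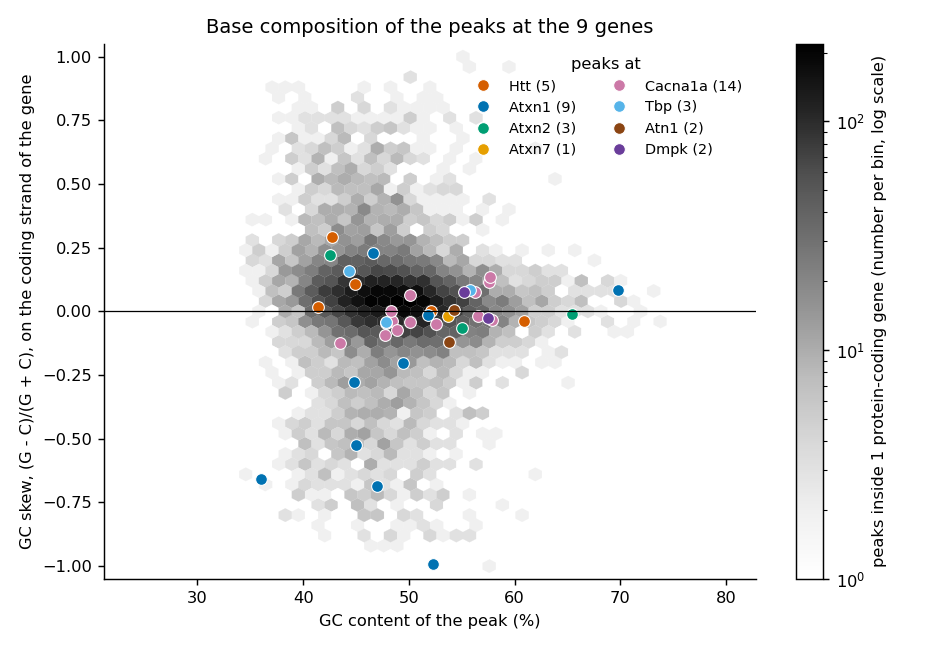
GC content in percent (x axis) and GC skew on the coding strand (y axis) of the peaks at the genes (coloured points, number of peaks in brackets) over the 11847 peaks inside 1 protein-coding gene (grey bins, log scale). The 4 lowest points are Atxn1 peaks, down to -0.991, and the other points lie between -0.276 and 0.293.

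Of these 4 Atxn1 peaks, the one with the lowest skew had 99.3% pyrimidines on the coding strand, with 213 C, 193 T, 2 A and 1 G in 409 bp. Long uninterrupted purine or pyrimidine runs were therefore counted in all peaks, with a minimum of 50 bp that was chosen after these values were seen. Such a run was present in 10 of the 39 peaks, 3 of them at Atxn1, 4 at Cacna1a and 1 each at Htt, Atxn2 and Tbp. It was present in 19.3% of all peaks, so the members' 25.6% is near the value for the list, and in 3.16% of 5116421 windows of 500 bp that tile the genome. Of the 3754 peaks under 500 bp, which are no longer than these windows, 22.6% held one. The longest runs at Atxn1 and Htt are printed in capitals with 10 bases on each side where the peak allows, on the coding strand. The peaks to print were chosen with their composition known. In the printed runs purines stood on the coding strand in Htt and pyrimidines in Atxn1. Another Atxn1 peak, not printed, had a run of 50 bp with purines on the coding strand.
Atxn1, chr13:45832799-45833091, minus strand, run of 273 bp: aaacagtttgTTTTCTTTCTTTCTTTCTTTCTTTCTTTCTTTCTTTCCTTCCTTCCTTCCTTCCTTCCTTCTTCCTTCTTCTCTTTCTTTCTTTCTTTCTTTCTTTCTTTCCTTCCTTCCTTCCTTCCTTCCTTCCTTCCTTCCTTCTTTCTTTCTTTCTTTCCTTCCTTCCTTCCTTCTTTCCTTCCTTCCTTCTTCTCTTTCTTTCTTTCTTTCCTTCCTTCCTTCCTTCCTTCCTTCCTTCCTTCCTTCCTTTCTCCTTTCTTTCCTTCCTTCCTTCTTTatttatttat
Htt, chr5:35125832-35126048, plus strand, run of 197 bp: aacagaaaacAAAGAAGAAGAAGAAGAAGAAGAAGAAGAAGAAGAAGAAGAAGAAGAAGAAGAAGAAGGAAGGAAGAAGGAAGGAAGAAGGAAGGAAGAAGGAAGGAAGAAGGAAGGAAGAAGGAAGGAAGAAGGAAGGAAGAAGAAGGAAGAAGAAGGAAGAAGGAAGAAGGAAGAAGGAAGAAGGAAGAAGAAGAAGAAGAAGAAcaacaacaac
Atxn1, chr13:45934314-45934497, minus strand, run of 174 bp: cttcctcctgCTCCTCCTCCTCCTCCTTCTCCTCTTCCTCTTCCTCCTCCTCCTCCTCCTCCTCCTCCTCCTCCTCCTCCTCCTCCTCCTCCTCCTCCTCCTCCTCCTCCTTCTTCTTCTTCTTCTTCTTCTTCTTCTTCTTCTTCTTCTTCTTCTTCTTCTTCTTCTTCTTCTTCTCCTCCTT

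The Htt run lies in the 5.65 kb peak and contains the AAG triplet 19 times in tandem, which is the GAA repeat read in another phase. This intronic run is longer than the CAG and CAA run in exon 1 of the same gene. In the shorter of the printed Atxn1 runs a unit of 3 bases occurred 23 times in tandem. Among the 10 peaks with such a run, purines stood on the coding strand in 5 and pyrimidines in 5. Over the 1934 peaks with a run that lay inside 1 protein-coding gene, purines were on the coding strand in 45.8%. The sets differ, since the 10 include the Tbp peak beyond the gene end. GT or AC dinucleotides with at least 10 copies in tandem were found in 6 of the 39 peaks (15.4%). They were found in 27.4% of all peaks, in 22.6% of peaks under 500 bp and in 4.86% of the windows of 500 bp. The Atxn1 peak with a skew of -0.686 is among the 6, and it is printed whole with its longest stretch of 17 CA copies in capitals.
Atxn1, chr13:45936458-45936674, minus strand, 217 bp: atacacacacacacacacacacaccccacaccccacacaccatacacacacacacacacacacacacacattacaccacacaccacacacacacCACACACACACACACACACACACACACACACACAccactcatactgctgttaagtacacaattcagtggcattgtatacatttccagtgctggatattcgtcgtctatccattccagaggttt

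Because the DNA was digested with 5 restriction enzymes before DRIP, the peaks were also placed on the enzymes' sites in mm9. Of the 39 peaks, 16 contained a site, beside 47.4% of all peaks. Of their 78 edges, 17 lay within 100 bp of a site, which is 21.8% beside 28.7% of all peak edges. The share at random positions was not computed, and whether edges follow the digestion was not tested.

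Other genes of repeat expansion disorders, fixed as a list of 29, had a peak in 20 cases, beside 43.1% of all protein-coding genes, with a median coverage of 2.77%. This comparison and the next are not matched for length. The share with a peak rises from 26.4% of genes under 10 kb to 68.2% of genes of 300 kb or more. The most peaks were at Zfhx3 with 11, Tnrc6a with 10 and Xylt1 with 8. Without a peak were among others Aff2, 3110043O21Rik (the mouse C9orf72 gene), Jph3, Cstb, Fgf14, Samd12 and Gipc1. Of 14 genes known to modify repeat instability, mostly DNA mismatch repair genes, 9 (64.3%) had a peak, read beside the same 43.1%. Msh6 and Fan1 had 2 each, while Msh3, Mlh3, Pms1, Exo1 and Rrm2b had none.

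Marker genes of the labelled cell type were examined in the same way, although a peak is not a level of RNA. The share of all protein-coding genes with a peak (43.1%), again not matched for length, applies here too. Of 8 markers of neural stem and progenitor cells, 6 had a peak, led by Slc1a3 with 10 and Sox2 with 2, then Nes with 1, and Pax6 and Fabp7 had none. Of 5 oligodendrocyte lineage markers 3 had one (Olig1, Olig2 and Mbp, not Pdgfra or Sox10). Only Map2 of 5 neuron markers had peaks (Tubb3, Rbfox3, Dcx and Syt1 had none). The same was true of Csf1r among 5 microglia markers (not Aif1, Cx3cr1, P2ry12 or Tmem119) and Pecam1 among 4 endothelium markers (not Cldn5, Cdh5 or Tek).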

How the data were processed

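Reads were trimmed (Trim Galore 0.6.6, per the submitters' processing notes), aligned to NCBI37/mm9, freed of duplicates and called into peaks with a Hidden Markov Model by the authors, per the methods of the paper. They deposited 1 list of peak positions, given as coordinates without score. Repeat DRIP reactions of each biological replicate were pooled into a library, but the rule by which peaks of the replicates were combined into 1 list is not given in the sources used here, and the input sample was not analysed here. Starts were converted to 1-based positions and overlaps counted from 1 bp on the GENCODE M1 annotation, whose main transcript is the coding transcript with the longest coding sequence. The promoter class took in 1 kb before the start of any annotated transcript and 100 bp after it. Named are the 9 genes, all genes that their peaks also overlap and, of each list, the 3 genes with the most peaks and those without one, except that results for some of these are not reported here. The members and lists were chosen with earlier results of these data known. The overlap and run searches were tested on simulated data. Alternatives changed the margin, the peak width, the merging of peaks and the gene limits. Python 3.11.15, numpy 2.4.6, scipy 1.17.1, pysam 0.24.0 and matplotlib 3.10.9 were used.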

Additional observations from a re-analysis of the deposited data

How the results depend on the processing

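That 8 of 9 genes had a peak kept within 6 to 8 genes under every alternative tried. Keeping only peaks of at least 1 kb left 25 of the 39 peaks (4 of 9 at Atxn1, 3 of 5 at Htt and 0 of 1 at Atxn7), a median coverage of 4.10%, a median GC skew of -0.026 and a median GC content of 52.6%, and put 28.0% of peak edges near a restriction site (this last alternative was chosen after seeing the data). Adding 2 kb to each side of the genes gave a median coverage of 7.64%, and counting only the bases inside a gene gave a skew of -0.015. With a margin of 1 kb, 6 gene starts and 4 gene ends were at a peak, and with the end of any protein-coding transcript 4 ends. When any of equally long runs in a peak sufficed, also chosen after seeing the data, 4 genes counted in place of 2. The share of genes with a peak was 30.8% over all annotated genes and, by length class, 26.4, 48, 56.3, 64.1 and 68.2%. Of 54 recomputed peak counts of single genes, 45 stayed within 1.5 times. The limits are that 1 list without depth or signal shows neither the strength of a peak nor its spread between animals, and that a missing peak may be a hybrid below detection. No paired analysis was possible because 1 list was deposited and no groups are compared.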
